A study of Mus musculus with 8 samples.

Results

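miR-320-3p, miR-484, both arms of miR-877 and miR-702-3p were followed through the RNA-induced silencing complex (RISC) of the mouse brain, as 5 mature microRNAs (miRNAs) that reach the RISC without the usual first cut. They were all reads whose miRNA name equalled mmu-miR-320-3p, mmu-miR-484, mmu-miR-877-5p, mmu-miR-877-3p or mmu-miR-702-3p. These were 5 of 895 miRNA names and 297 of 47204 read sequences. The 8 libraries came from combined cortex and hippocampus of 8 female mice, 4 per genotype, which were 6 or 8 months old according to the methods of the study. All mice carried the 5XFAD transgene, which drives amyloid deposition, in a mixed C57BL/6J/SJL background, and no library from a mouse without the transgene was part of the comparison. The labels call the genotypes 5XFADtg/Rubicon het (Rubicon+/-, here het) and 5XFADtg/Rubicon ko (Rubicon-/-, here ko), with Rubicon being a gene that restrains autophagy. Argonaute (Ago) proteins were pulled down with a GW182 peptide, and the small RNAs bound to them were sequenced. The question put to these libraries was whether the content of the RISC differed between the genotypes.

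Most miRNAs are cut out of a primary transcript by Drosha with DGCR8, and the hairpin that is released is then cut by Dicer. miR-320 and miR-484 are made without DGCR8 but need Dicer, and the 5′ end of the miR-320 precursor is the capped start of its own transcript. A mirtron such as miR-877 is a short intron whose 2 ends are made by the splicing machinery, so that an intron that begins with GU and ends with AG becomes the hairpin. miR-702 is likewise encoded in a short intron.

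The mature sequences show what these miRNAs would target and where the genome puts them, and 4 of 5 were matched to RefSeq (build GRCm38.p6). Bases 2 to 8, the seed that pairs with target mRNAs, are in capitals.
miR-484, chr16:14159630-14159651, plus strand: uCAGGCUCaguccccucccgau
miR-877-5p, chr17:35960795-35960814, minus strand: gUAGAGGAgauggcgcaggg
miR-877-3p, chr17:35960731-35960752, minus strand: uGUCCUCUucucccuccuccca
miR-702-3p, chr5:136991520-136991541, plus strand: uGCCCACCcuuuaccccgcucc
The 5 main seeds all differed, and no other miRNA name that averaged 10 CPM (reads per 1000000 reads of the library) had any of them as the seed of its main read. In the GENCODE M21 annotation (GRCm38) the miR-877 hairpin, 85 nt long, is the whole intron 12 of Abcf1-201 (chr17:35960730-35960814). The miR-702 hairpin (chr5:136991433-136991541) begins 9 nt before intron 13 of Plod3-201 and stops 2 nt before the end of that 102-nt intron. The miR-320 hairpin (chr14:70443510-70443591, plus strand) lies 63 bp from the start of Polr3d, which is on the other strand. The miR-484 hairpin (chr16:14159626-14159692, plus strand) lies 359 bp from the start of Marf1-201, also on the other strand, and 19 of its bases overlap an exon of Marf1-202 there.

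Depth ran from 509839 to 2634450 reads in the het libraries and from 1010177 to 19878057 in the ko libraries, with ko 1 and ko 2 over 5000000 reads. Neuronal miRNAs were abundant in every library (the sum of 4 markers was at least 150910 CPM), the liver marker miR-122-5p stayed at or below 22.3 CPM, and 6 epithelial markers summed to 2184 to 8442 CPM in het and 166 to 1727 CPM in ko. The part of these epithelial RNAs in the results below was not tested. Small RNAs cannot show whether Rubicon was lost, so the genotypes rest on the labels. The libraries came from different mice, and fewer cells of a type cannot be told apart from less of a miRNA per cell.

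miR-320-3p was the most abundant of the 5 miRNAs. It was at 1311, 759, 759 and 1600 CPM in het 1 to het 4 and at 1171, 895, 2194 and 2554 CPM in ko 1 to ko 4 (mean of all 1405 ± 670 CPM, SD, n = 8). The 2 highest libraries were ko 3 and ko 4, and the other ko libraries lay inside the het range. By mean level it was number 82 of the miRNA names, between miR-34a-5p (1449 CPM) and miR-708-5p (1374 CPM).

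miR-484 was at 595, 703, 700 and 878 CPM in the het libraries and at 593, 388, 745 and 897 CPM in the ko libraries (687 ± 165 CPM, SD, n = 8, number 130). The groups overlapped nearly completely, and ko 2 was the lowest library. Its SD over libraries on the log2 scale was 0.385, smaller than that of most miRNAs (30.02% of the 463 tested had a smaller one). miR-877-3p was at 135, 162, 87.4 and 180.2 CPM in het and at 104, 83.7, 222.6 and 245 CPM in ko (153 ± 60.9 CPM, number 244). miR-702-3p was at 86.9, 78.4, 66.0 and 125 CPM in het and at 55.1, 38.4, 175 and 108 CPM in ko (91.6 ± 43.6 CPM, number 286). For both, the highest and lowest ko libraries enclosed the whole range of het.

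miR-877-5p, the other arm of the mirtron, was at 13.5, 68.8, 59.0 and 96.5 CPM in het and at 74.8, 48.7, 143 and 171 CPM in ko (84.4 ± 51.3 CPM, number 294). Its lowest value, in het 1, rested on 7 reads in the shallowest library, where 3 reads correspond to 5.79 CPM. Over all 8 libraries it had the largest SD of the 5 on the log2 scale, 1.10, but this rested on het 1. Without that library, a choice made after seeing the data, its SD was 0.659, below that of miR-702-3p (0.737) and miR-320-3p (0.721).

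**Figure D1:**
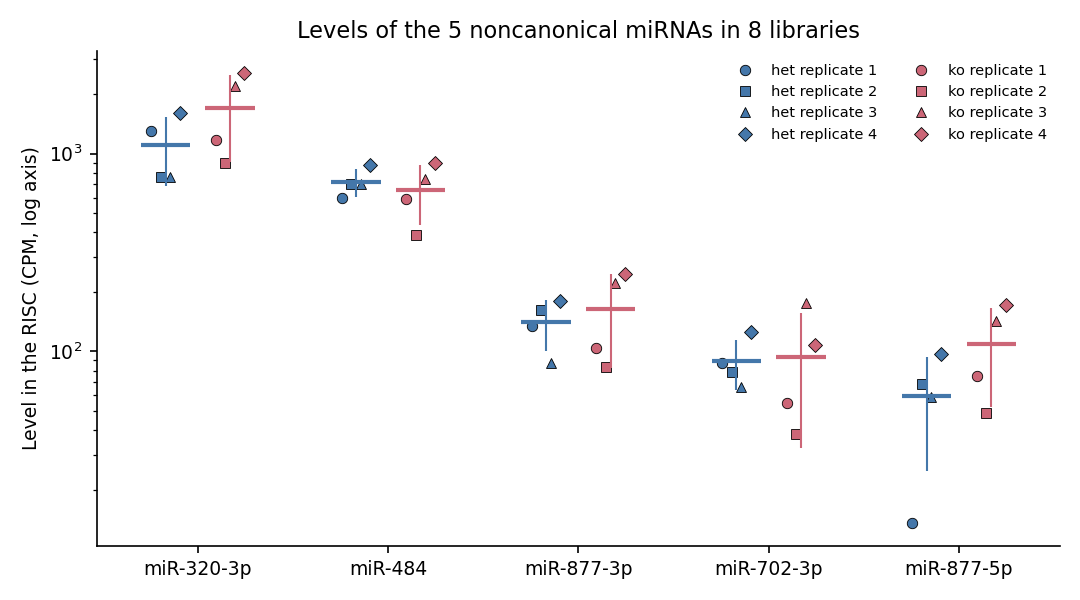
Level of each of the 5 miRNAs (log axis, CPM) in the 8 libraries. Each symbol is 1 library, with het in blue and ko in red, and bars and lines show the mean and SD of 4 libraries. The miRNAs are ordered by mean level, from miR-320-3p at 1405 CPM to miR-877-5p at 84.4 CPM, and the genotypes overlap for each.

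The order of the levels, which was taken from these libraries and is a description, was kept in every library for the first steps. miR-320-3p exceeded miR-484, miR-484 exceeded miR-877-3p and miR-877-3p exceeded miR-702-3p in 8 of 8 libraries, with log2 differences of 0.94 ± 0.56, 2.23 ± 0.39 and 0.77 ± 0.33 (SD, n = 8). miR-702-3p and miR-877-5p did not differ beyond their spread, since miR-702-3p was higher in 5 of 8 libraries and the log2 difference was 0.27 ± 1.01. This difference ran from -0.66 to 2.60, with the highest value in het 1, where miR-877-5p had 7 reads. The 5 together made up 0.146% to 0.402% of the reads of a library.

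None of the 5 miRNAs passed the test between genotypes. With limma on log2(CPM + 1), where a log2 fold change understates the change of low values, and with adjustment over the 463 miRNAs that averaged 10 CPM or more, 0 of 5 were called at an adjusted p under 0.05, against 6 of 463 (1.3%) among all miRNAs, all of which fell in ko. Without adjustment, 0 of 5 were under 0.05 as well, against 34 of 463 (7.34%). edgeR and DESeq2 on the recovered reads called 4 and 9 miRNAs and none of the 5.

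The estimates were wide. miR-877-5p had the largest, with a log2 fold change of 0.99 ± 0.57 (SE, 95% interval -0.24 to 2.23, limma adjusted p = 0.755), which fell to 0.41 when het 1 was left out. miR-320-3p followed with 0.57 ± 0.38 (-0.25 to 1.39, limma adjusted p = 0.796). miR-877-3p had a value of 0.11 ± 0.40 (-0.74 to 0.97), miR-702-3p of -0.12 ± 0.44 (-1.08 to 0.84) and miR-484 of -0.18 ± 0.29 (-0.81 to 0.44), each with a limma adjusted p of 0.975. The intervals of miR-320-3p, miR-877-5p and miR-702-3p reach past a 2-fold difference, so a p above the threshold does not show equal levels. Of the 5 estimates 3 were above 0 and their median was 0.11, beside 188 of 463 above 0 and a median of -0.09 over all miRNAs. These directions depended on the scaling, since all 5 were above 0 with median centring, edgeR or DESeq2.

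The deep ko libraries stood below the others for all 5 miRNAs. ko 1 and ko 2 were both lower than both ko 3 and ko 4 for 5 of 5, and for 93 of the 463 miRNAs (20.1%). Without these 2 libraries the log2 fold change was 1.17 for miR-320-3p (limma adjusted p = 0.279), 1.67 for miR-877-5p (adjusted p = 0.363), 0.77 for miR-877-3p, 0.66 for miR-702-3p and 0.20 for miR-484, and none passed the test. The part of depth in these values was not tested. The main reads of the 5 miRNAs were richer in G and C than the median miRNA (47.6%), with 66.3% of miRNAs below miR-320-3p and 92.4% below miR-877-5p.

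Other miRNAs that bypass the standard route showed no call either, beside 1.3% called among all miRNAs. Of 9 such names with enough reads (the mirtrons miR-1224 and miR-1981, miR-664 and miR-1839 from small nucleolar RNAs, and miR-451a, which is cut by Argonaute instead of Dicer), 0 were called, 5 were above 0 and 4 below, and their median log2 fold change was 0.05, against -0.09 over all miRNAs. miR-451a, a red cell miRNA, had the largest value with -0.86 ± 0.36 (SE, limma adjusted p = 0.593). It averaged 1308 ± 521 CPM (SD, n = 8), close to miR-320-3p, while miR-1224-5p and miR-1224-3p averaged 185 ± 102 and 55.2 ± 23.0 CPM.

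A 5′ end sets the seed, and the ends of these miRNAs were of very different sharpness. Every read of miR-877-5p in every library began with the first base of the intron, so its share of reads at the main start was 100% in 8 of 8 libraries (35 read sequences, from 7 reads in het 1 to 970 in ko 2). miR-702-3p had 99.7% ± 0.56 (SD, n = 8) of its reads at 1 start and miR-484 had 98.1% ± 0.41. The median over the 463 miRNAs was 96.6%, and miR-484 and miR-702-3p were above the median of the library in 8 of 8 libraries (exact sign-flip test, p = 0.0078 each, the smallest possible). Every measure tested in this way reached this p, as does any miRNA on 1 side of the median in every library. The share of all miRNAs that do so was not counted, so this p does not set these miRNAs apart.

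miR-320-3p and miR-877-3p were below that median in 8 of 8 libraries (exact sign-flip test, p = 0.0078 each). miR-320-3p had 93.4% ± 1.497 of its reads at the main start, and 4.68% ± 1.11 began 1 nt further in. miR-877-3p had 64.98% ± 2.29 (61.4% to 69.4%), and only 48 of the 463 miRNAs had a lower share. The genotypes could hardly be told apart by ends, lengths or tails in this design, since the smallest exact p over 70 splits, 0.0286, becomes 0.314 after adjustment over 11 measures when 1 measure alone reaches it, and 7 would have to reach it to pass. The values are therefore given as a description. Between genotypes the shares of the 4 miRNAs with at least 20 reads in every library did not pass the test (exact permutation test over 70 splits, adjusted p from 0.576 to 0.873 over 11 end, length and tail measures). The difference, ko minus het, was -1.12 percentage points for miR-320-3p, -0.28 for miR-484, -1.19 for miR-877-3p and -0.18 for miR-702-3p. Leaving out 1 library moved each of these by over 1.5 times, with -0.40 for miR-320-3p without ko 4 and -0.14 for miR-484 without het 2, and miR-877-3p and miR-702-3p changed sign without het 4 and ko 3. With reads that averaged 1 CPM or more, the differences were -0.15 for miR-877-3p, -0.05 for miR-484 and 0 for miR-702-3p.

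The miR-877 hairpin shows where these ends lie. It is printed with both annotated mature arms in capitals, and its first and last pairs of bases are the GU and AG of the intron.
Mir877 hairpin, chr17:35960730-35960814, minus strand: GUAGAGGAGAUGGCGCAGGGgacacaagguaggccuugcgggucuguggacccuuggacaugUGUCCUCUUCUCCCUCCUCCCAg
The 5p arm had 1 start and many last bases, whereas the 3p arm had 2 main starts and few last bases. Counted from the first intron base, 64.98% of the 3p reads began at position 63 and 33.7% ± 2.80 at position 65, with position 64 at 1.06%. The last base of 3p reads that matched the intron was position 84 in 45.2% ± 7.95 and position 85, the last base of the intron, in 44.6% ± 4.79. The last matching base of the 5p reads was spread over positions 18 to 24, with position 20 the most common at 33.0% ± 6.64.

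**Figure D2:**
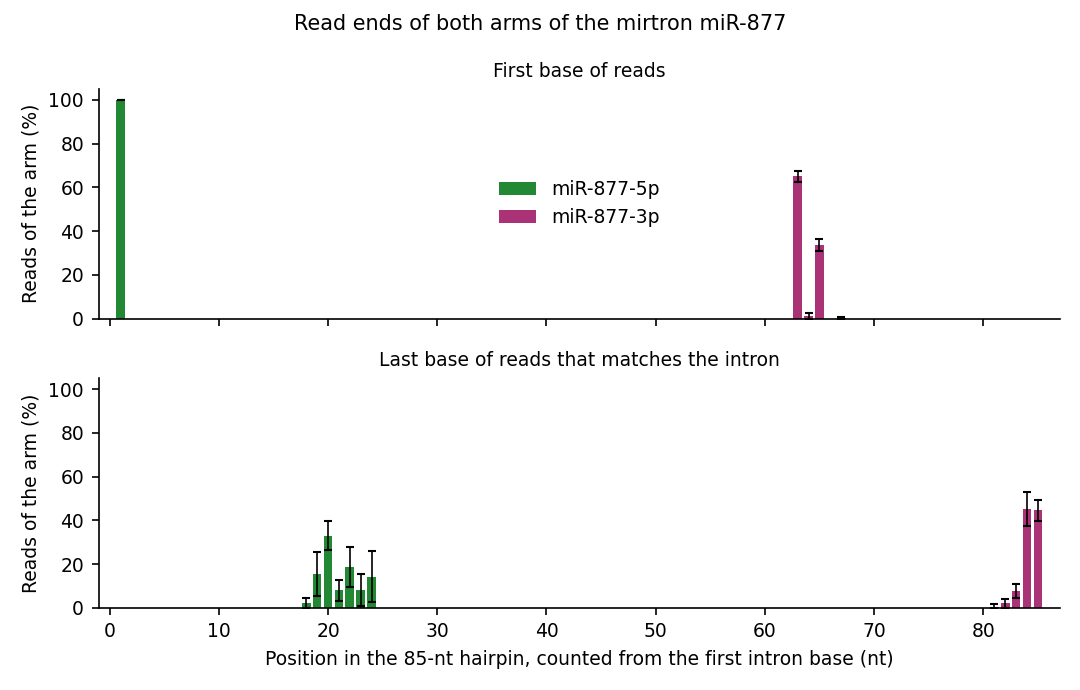
Ends of reads of miR-877-5p (green) and miR-877-3p (purple) along the 85-nt intron that forms the hairpin, as the mean share of the reads of each arm in 8 libraries with the SD. Upper plot, first base, with 1 bar at position 1 for the 5p arm and bars at positions 63 and 65 for the 3p arm. Lower plot, last base that matches the intron, with the 3p arm at positions 84 and 85.

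The 2 starts gave miR-877-3p 2 seeds of very unlike score. The 6mer seed viability is a deposited score that averages the viability of 3 mouse cell lines after transfection with an siRNA of that seed, in which a low number marks a toxic seed. The main reads of each start follow, with bases 2 to 8 in capitals, the last of them with a U after the final base of the intron.
start at position 63: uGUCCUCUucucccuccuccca
start at position 65: uCCUCUUCucccuccucccagu
Reads from position 63 carried the 6mer seed GUCCUC with a viability of 8.2, and those from position 65 carried CCUCUU with a viability of 66.1. They averaged 99.2 and 51.4 CPM. Of the reads with either start, position 63 held 61.4% (43 of 70 reads, 95% Wilson interval 49.7% to 72.0%), 67.7%, 67.0% and 70.3% in het 1 to het 4, and 65.4%, 65.4%, 65.4% and 64.4% in ko 1 to ko 4. In the deepest library, ko 2, the interval was 63.1% to 67.7%, and it overlapped those of each other ko library and of het 1 to het 4. Intervals here cover counting error only.

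**Figure D3:**
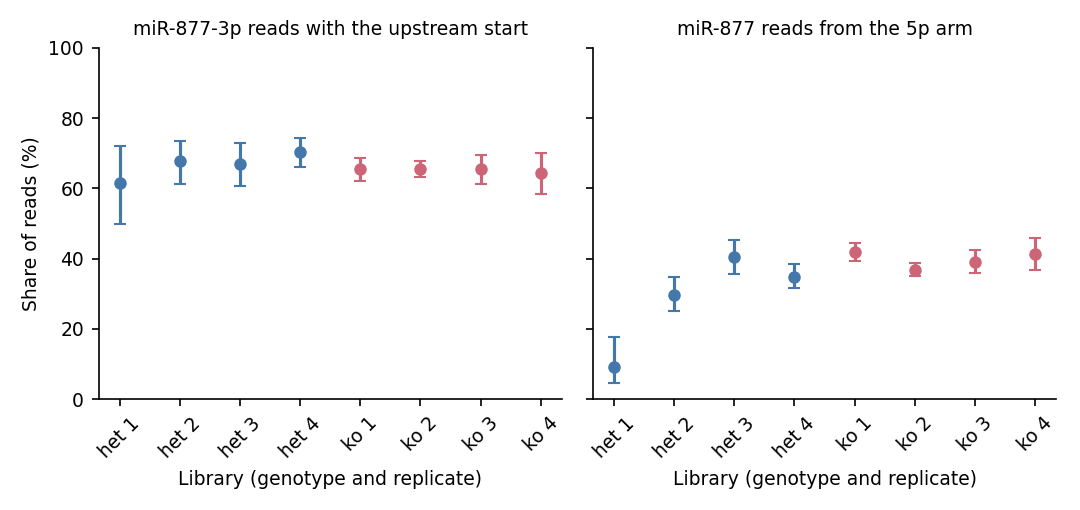
Shares of miR-877 reads by library, het in blue and ko in red, with 95% Wilson intervals. Left, reads of miR-877-3p that began at position 63, as a share of those at positions 63 and 65, which lies between 61.4% and 70.3%. Right, reads of the 5p arm as a share of both arms, with het 1 at 9.09% and the other libraries between 29.8% and 41.9%.

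The arms of miR-877 kept the 3p arm on top. miR-877-5p made up 9.09% of the reads of both arms in het 1 (7 of 77 reads, 95% Wilson interval 4.47% to 17.6%), 29.8%, 40.3% and 34.9% in het 2 to het 4, and 41.9%, 36.8%, 39.1% and 41.2% in ko 1 to ko 4. The 3p arm held more reads in 8 of 8 libraries. The means were 28.5% ± 13.7 in het and 39.7% ± 2.28 in ko (SD, n = 4 each), a difference of 11.2 percentage points that was 4.74 without het 1. With 7 reads of the 5p arm in that library, under the minimum of 20, the ratio was not tested.

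Many reads of the mirtron carried bases at the 3′ end that the hairpin does not have. Such a tail is here what follows the longest match of a read to its hairpin. It was present on 55.7% ± 8.78 of the reads of miR-877-3p (SD, n = 8, range 49.2% to 75.7%), beside a median of 12.2% over 369 miRNAs, of which 14 had a higher share. The value was 75.7%, 60.6%, 52.0% and 52.9% in het and 53.1%, 52.2%, 49.2% and 50% in ko. het 1, the shallowest library, with 70 reads of this arm, was the highest. A tail of U alone accounted for most of it (40.6% ± 10.5) and a tail of A alone for 11.7% ± 3.07, where the medians over miRNAs were 3.84% and 4.65%.

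The 2 starts of miR-877-3p differed in their tails too. Of the reads that began at position 65, 86.7% matched through the last base of the intron and 78.7% had a tail, and a U tail was on 64.5%. Of those that began at position 63, 22.8% matched that far, 61.4% had their last match at position 84, and 42.9% had a tail. Their mean lengths were 21.7 and 22.5 nt, so the reads with the later start mostly ended later. The first base of the next exon of Abcf1-201 is G. Of all miR-877-3p reads, by mean CPM, 24.1% had a U right after the last base of the intron, 7.41% an A and 0% a G, and 12.9% stopped there.

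Tails of miR-877-5p were of another kind in most libraries. They were on 33.9% ± 14.4 of its reads, with none on the 7 reads of het 1 and 29.1% to 43.4% in the other libraries. On average a tail of A alone (20.01% ± 10.6) was more common than one of U alone (7.59% ± 5.58). ko 4 had the reverse, with A alone on 9.14% and U alone on 16.6%. Tails of miR-484 were on 21.0% ± 2.27 of reads and were mostly U (15.3% ± 2.46). The share was above the median of the library in 8 of 8 libraries for miR-484, miR-877-3p and miR-702-3p (exact sign-flip test, p = 0.0078 each, the smallest possible). As for the starts, this p does not set them apart from other miRNAs.

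miR-702-3p ran past its annotated hairpin in 83.3% ± 5.02 of reads (73.3% to 89.1%), and only 4 of 369 miRNAs had a higher share. Since the hairpin ends 2 nt before the intron does, this share can count bases of the intron as well, and those were taken as AG, with which introns end, because no genome sequence was used here. The 3 most abundant reads show it, with the bases past the hairpin in capitals.
29.8 CPM: ugcccacccuuuaccccgcuccAGU
19.7 CPM: ugcccacccuuuaccccgcuccA
15.4 CPM: ugcccacccuuuaccccgcuccAG
Reads with AG made up 17.5% ± 6.95, and those with AGU made up 33.4% ± 6.26 (22.2% to 42.3%). Reads with A made up 21.7% ± 5.43, and 16.7% ± 5.02 ended inside the hairpin. The first base of the next exon of Plod3-201 is G, and no read had a G after AG. With the hairpin extended to the end of the intron, a choice made after seeing the data, 44.1% ± 10.8 of reads had a tail. Its reads averaged 23.7 ± 0.196 nt, longer than those of the other 462 miRNAs tested, whose median was 21.8 nt.

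**Figure D4:**
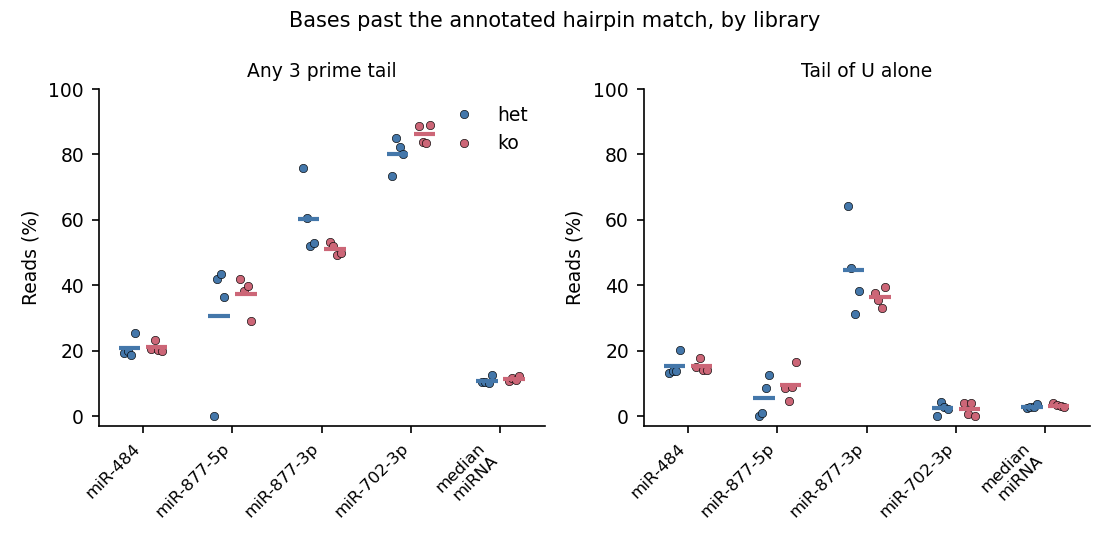
Share of reads with bases past the match to the annotated hairpin (left) and with a tail of U alone (right), in percent, for 4 miRNAs and for the median of 369 miRNAs. Each point is 1 library, het in blue and ko in red, and lines are means of 4. miR-877-3p lies at 49.2% to 75.7% on the left and at 31.1% to 64.3% on the right, and miR-702-3p is high on the left and between 0% and 4.39% on the right. For miR-702-3p the right plot leaves out a U after the AG of the intron end, since the annotated hairpin stops 2 nt earlier. Reads with such an AGU tail made up 33.4% ± 6.26.

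No tail or length measure passed the test between genotypes, which a single measure could not have done after adjustment. The tail of miR-702-3p past its annotated hairpin came nearest, with 80.2% ± 5.02 in het and 86.3% ± 2.99 in ko (exact permutation test, p = 0.0857, adjusted p = 0.524). The difference of 6.07 percentage points was 3.77 without het 1. With the hairpin extended to the end of the intron, it was 5.62 (exact permutation test, p = 0.571 without adjustment) and no longer came nearest. The tail of miR-877-3p was on 60.3% ± 10.97 of reads in het and 51.1% ± 1.82 in ko (exact permutation test, p = 0.143, adjusted p = 0.524), and the difference of -9.18 percentage points was -4.04 without het 1. For miR-484 the share was 20.9% ± 3.10 in het beside 21.0% ± 1.56 in ko. Mean lengths differed between genotypes by 0.01 nt for miR-320-3p, -0.05 for miR-484, -0.15 for miR-877-3p and 0.17 for miR-702-3p. The last was 0.0587 nt without het 1, and that of miR-877-3p was -0.0864 nt without het 2 and -0.223 nt without het 4.

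miR-320-3p was ragged at the 3′ end. Its main read, 22 nt long, held 39.3% ± 3.97 of its reads. The same read with 1 more A held 10.2% ± 0.97, with 1 more U 8.50% ± 1.89 and with AU 5.94% ± 1.29, and a read shorter by 1 nt held 5.68% ± 1.05. Whether the added letters are in its hairpin was not analysed here. Its mean length was 22.5 ± 0.0752 nt, above the median of the library in 8 of 8 libraries.

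Of the other miRNAs on that list, the mirtron arm miR-1224-3p also had tails on most reads (83.4% ± 10.5), and its 5p arm had them on 32.2% ± 3.56. Of the mirtron miR-1981, the 5p arm had them on 16.8% ± 2.57 (14.3% to 21.6%) and the 3p arm on 12.3% ± 9.55 (0% to 26.4%, with only 10 of its reads in het 1). miR-664-3p had them on 29.6% ± 4.16, miR-1839-5p on 15.2% ± 4.05 and miR-451a on 0.803% ± 0.396. The share at the main 5′ start was 83.1% ± 2.69 for miR-1839-5p and 99.8% ± 0.387 for miR-1224-5p. For miR-664-5p it ran from 12.5% to 75.8%, with 16 reads in het 1, under the minimum of 20 used for tests.

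The main seeds of all 5 miRNAs had a viability below the CPM-weighted mean of all reads, 56.4 ± 0.775 (SD, n = 8). How many of all miRNAs have a main seed below that mean was not counted, so this is not shown to be particular to the 5. Some of the less common seeds of the 5 were above that mean, such as CCUCUU of miR-877-3p and AAGCUG of miR-320-3p (64.2, on 4.68% of its reads). The scores of the main seeds were 54.3 for AAAGCU of miR-320-3p, 47.4 for UAGAGG of miR-877-5p, 37.3 for GCCCAC of miR-702-3p, 34.3 for CAGGCU of miR-484 and 8.2 for GUCCUC of miR-877-3p. Weighted over both starts, miR-877-3p had a mean of 28.3 ± 1.31 (26.0 to 30.5). All reads with a viability under 10 summed to 1799 ± 197 CPM, and miR-877-3p made up 5.39% ± 1.72 of them (3.21% in het 3 to 7.97% in ko 4). The share depends on the limit, which lies just above the score of GUCCUC, and of the reads with a viability under 20 (18947 CPM) miR-877-3p made up 0.579% (0.222% to 1.44%). GUCCUC was the fifth most abundant seed among those with a viability under 10, behind the main seeds of miR-365-3p, miR-485-5p and miR-346-5p and 1 seed mostly on reads with no name.

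Most of these seeds were nearly private to their miRNA in the RISC. miR-484 held 99.6% of the reads with CAGGCU, miR-877-3p 99.2% of those with GUCCUC, miR-702-3p 98.9% of those with GCCCAC and miR-877-5p 88.9% of those with UAGAGG. miR-320-3p was the exception, since AAAGCU (9913 CPM in all) came mostly from miR-9-3p (85.7%), a brain miRNA, and 13.2% from miR-320-3p. The main read of miR-9-3p has another seed, so these are other reads of that name.

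The miRNAs with the most similar levels over the 8 libraries were found by Pearson r of log2(CPM + 1), which is a description over 8 libraries of unequal depth. For miR-320-3p they were miR-433-3p (0.90), let-7f-2-3p (0.90) and miR-485-3p (0.86). For miR-484 they were miR-673-3p (0.92), miR-125a-5p (0.91) and miR-326-3p (0.90). For miR-877-3p they were miR-1224-3p (0.95), which is the 3p arm of another mirtron, miR-3102-3p.2-3p (0.95) and miR-8114 (0.93). For miR-877-5p they were miR-6769b-3p (0.96), miR-7044-3p (0.95) and miR-1982-3p (0.93), which averaged only 17.0, 22.4 and 12.6 CPM. For miR-702-3p they were miR-455-3p (0.96), miR-1249-3p (0.93) and miR-485-3p (0.93). Among the 5 themselves r ran from 0.43 (miR-702-3p and miR-877-5p) to 0.88 (miR-702-3p and miR-877-3p), and the 2 arms of miR-877 had 0.55. All r values of miR-877-5p include het 1, where it had 7 reads and its lowest level. They were not computed without that library, so they do not show how closely the 2 arms run together.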

How the data were processed

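Ago-bound small RNAs of 8 libraries were analysed, with groups and replicate numbers from the sample titles. The authors' SPOROS pipeline trimmed reads, removed rare and artificial ones, matched the rest to small RNAs and scaled each library, and the deposited values are CPM per read sequence. The viability score of each seed was deposited with them, as was a signal column with the sum of the 8 libraries, which was not used. The genome build is not given in the sources used here. Within 0.0006 CPM plus 0.001% of the value, each value was a whole multiple of the CPM of 1 read (100% of values), which gave the depth and the recovered reads. Reads had no molecular identifiers.

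CPM were summed by miRNA name. miRNAs that averaged 10 CPM or more entered the test, on log2(CPM + 1) with limma 3.58.1 (trend, robust) in R 4.3.3, with Benjamini-Hochberg adjustment. edgeR 4.0.16 and DESeq2 1.42.0 on recovered reads were alternatives. On simulated data of 463 miRNAs with 200 changed by 2 on the log2 scale, limma recovered 93% with 1.06% false calls. The estimates of the members were smaller than that change, and smaller changes were not simulated, so the 93% does not give the power for them. Ends, lengths and tails, for a miRNA with at least 20 reads in every library, were compared by exact two-sided permutation tests over 70 splits (11 tests, Benjamini-Hochberg), and with the median miRNA of each library by exact sign-flip tests, which were chosen after seeing the data. Reads were matched to RefSeq hairpins from their first base over at least 15 nt. Other work used Python 3.11.15, numpy 2.4.6, pandas 2.3.3, scipy 1.17.1 and matplotlib 3.10.9. The members, the list of other noncanonical miRNAs and the tests were chosen with earlier results of these data known. The rule for names took the 5 members, that list, the 3 most similar miRNAs of each member and its neighbours in level. miR-9-3p, miR-365-3p and miR-485-5p as sources of seeds were named after their values were seen, and miR-122-5p as a liver marker. Replicate numbers did not pair the mice. Alternatives were other pseudocounts (0.1 and 10), filters (mean 1 or 100 CPM, or none), median centring, a replicate block, removal of a GC trend, and leaving out libraries.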

Additional observations from a re-analysis of the deposited data

Results flagged for a closer look

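By Dixon's test, 1 library stood apart in 3 of 34 groups of 4 libraries, where chance gives about 1.7. The share of miR-702-3p reads at the main 5′ end was 99.12% in het 2, with 100% in the other het libraries, and 98.53% in ko 3, with at least 99.87% in the others. Because the other het libraries tied at 100%, any departure of het 2 would have stood apart, and the chance count does not allow for ties. The tail share of miR-484 was 23.36% in ko 2 and at most 20.44% in the other ko libraries.

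Outside the named mature miRNAs, 14 sequences matched the miR-320 hairpin, at a mean of 7.758 CPM, from 1.55 CPM in het 3 to 13.5 CPM in het 1. miR-702-5p had 8 reads in all, 2 in ko 1 and 6 in ko 3.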

How the results depend on the processing

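None of the 5 members passed the test between genotypes under any alternative run (adjusted p from 0.279 to 0.994), but directions near 0 turned. miR-484 went from -0.18 on the log2 scale to 0.0374 with median centring, 0.0101 with edgeR, 0.0215 with DESeq2 and 0.199 without the 2 libraries over 5000000 reads. miR-702-3p went from -0.12 to 0.10, 0.18, 0.21 and 0.66 under the same settings. miR-877-3p went from 0.11 to 0.34, 0.35, 0.37 and 0.77. Removal of the GC trend took miR-877-3p to -0.0448, miR-484 to -0.37 and miR-702-3p to -0.30. Without the 2 deep libraries miR-320-3p was at 1.17 and miR-877-5p at 1.67. Median centring moved the median of all miRNAs from -0.09 to 0.13. Leaving out 1 library at a time gave -0.357 to 0.0443 for miR-484 (above 0 without ko 2), -0.128 to 0.385 for miR-877-3p (below 0 without het 3, ko 3 or ko 4), -0.495 to 0.225 for miR-702-3p (above 0 without het 4, ko 1 or ko 2), and 4 to 9 called miRNAs. For miR-320-3p and miR-877-5p it gave 0.33 to 0.84 and 0.41 to 1.32, above 0 in each.

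The replicate number as a block raised the count of called miRNAs from 6 to 10 and called no member. Deviations from the group means correlated by 0.04, 0.29, -0.18 and 0.25 between libraries with numbers 1 to 4, so the numbers were not taken as pairs.

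No end, length or tail difference (ko minus het) passed the test under an alternative, which shows no stability. A single measure cannot reach an adjusted p below 0.314 here, and without the 2 deep libraries (15 splits) the smallest p is 0.0667 before adjustment. Directions turned for some. Without the 2 deep libraries, the length of miR-320-3p was -0.0296 nt, the start share of miR-484 0.0250 and its tail share -0.716 percentage points, and with reads that averaged 1 CPM or more the latter was -0.109. With 1 library left out, the length of miR-320-3p ran from -0.0201 to 0.0515 nt, the start share from -1.64 to -0.40 for miR-320-3p, from -0.492 to -0.135 for miR-484, from -0.401 to 0.176 for miR-702-3p and from -2.57 to 0.0752 for miR-877-3p, and the tail share of miR-484 from -0.627 to 1.67 percentage points. The cause was not tested. The filter at 100 CPM left out miR-877-5p and miR-702-3p. No read carried a member beside another name, so an alternative on such names was not run. The 7 reads of miR-877-5p in het 1 limit what its levels and ends can show.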
